A study of Homo sapiens with 8 samples.

Results

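The distal long arm of chromosome 1, taken from 200 to 248.25 Mb in hg19 and running over bands 1q32 to 1q44, held 3732 of the 54434 γH2AX regions deposited for A2780 cells in 3 peak lists. A region belongs here when the midpoint of its called interval lies in that stretch of 48.25 Mb, which ends short of the subtelomere. Of the 10090 regions of the untreated list 115 met this rule, of the 26121 cisplatin regions 2589, and of the 18223 Pt-ttpy regions 1028. The stretch was chosen by the called positions of these same regions, so its counts, spacing, widths and overlaps are a description and carry no test.

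A2780 is a human ovarian carcinoma cell line. The groups of the series are untreated cells, cells given cisplatin at its IC80 dose for 96 hours, cells given Pt-ttpy at its IC80 dose for 96 hours, and input chromatin of untreated cells, with 2 samples in each group. All but the input were immunoprecipitated with an antibody against γH2AX and sequenced. Each list is tied by the labels to both samples of its group, so there is 1 list per condition, no replicate spread, and no p-value between conditions. Input was not analysed here.

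γH2AX is histone H2AX phosphorylated by the kinases that respond to DNA breaks, and it spreads along the chromatin on both sides of a break. Cisplatin forms crosslinks, mostly within a strand, at neighbouring purines. Pt-ttpy is a platinum complex that binds G-quadruplexes, which are stacked structures of guanine-rich DNA. The long arm of chromosome 1 is often gained in carcinomas, and its band 1q42 carries the tandem array of 5S ribosomal RNA genes, whose product is the small RNA of the large ribosomal subunit.

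After either drug the whole stretch carried γH2AX regions, whereas the deposited untreated list was nearly empty outside a few clusters. Density was 2.38 regions per Mb in the untreated list, 53.7 in the cisplatin list and 21.3 in the Pt-ttpy list. Of all regions on chromosomes 1 to 22 and X, the stretch took 1.18% untreated (exact 95% binomial interval 0.979 to 1.42), 10.1% after cisplatin (9.72 to 10.5) and 5.78% after Pt-ttpy (5.44 to 6.13). These and all later intervals of shares are exact binomial intervals and cover counting error only, not the variation between cultures or the clustering of regions. Per untreated region there were 22.5 cisplatin and 8.94 Pt-ttpy regions, and 2.52 cisplatin regions per Pt-ttpy region. With the same number of top regions taken from each list (9709), these ratios were 1.29, 0.930 and 1.38, so that Pt-ttpy no longer exceeded untreated. That number is the whole untreated list on chromosomes 1 to 22 and X, so only the treated lists were cut to their strongest regions. The lists were not called on equal terms, as the untreated peak numbers below show, and more γH2AX after a drug cannot be told apart here from deeper or less filtered calling.

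The treated regions were spread over the stretch rather than gathered at a few places. In 1 Mb windows the cisplatin list held from 18 to 145 regions with a median of 51.5, the Pt-ttpy list from 3 to 71 with a median of 16.5, and the untreated list from 0 to 58 with a median of 0.5. No full window lacked a region of either drug, while 24 of the 48 full windows had no untreated region. At least 5 cisplatin regions stood in all 48 windows, where 11.8% of the 3048 windows of chromosomes 1 to 22 and X had that many. For Pt-ttpy it was 45 windows, beside 9.81% of all windows. For untreated regions it was 5 of 48 windows, beside 5.15% of all windows. At least 2 times as many cisplatin as untreated regions, with 5 or more, were found in 47 of 48 windows (8.76% of all windows). The same rule gave 44 of 48 for Pt-ttpy over untreated (6.36%) and 39 of 48 for cisplatin over Pt-ttpy (4.89%). In the proximal neighbour on the same arm, from 150 to 200 Mb, all 50 windows had at least 5 regions of each drug. At least 5 untreated regions stood in 2 of them. All 50 met the rule for either drug over untreated, and 41 met it for cisplatin over Pt-ttpy. The windows of the distal stretch helped to choose it, and nothing is read from how far they exceed the background.

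**Figure D1:**
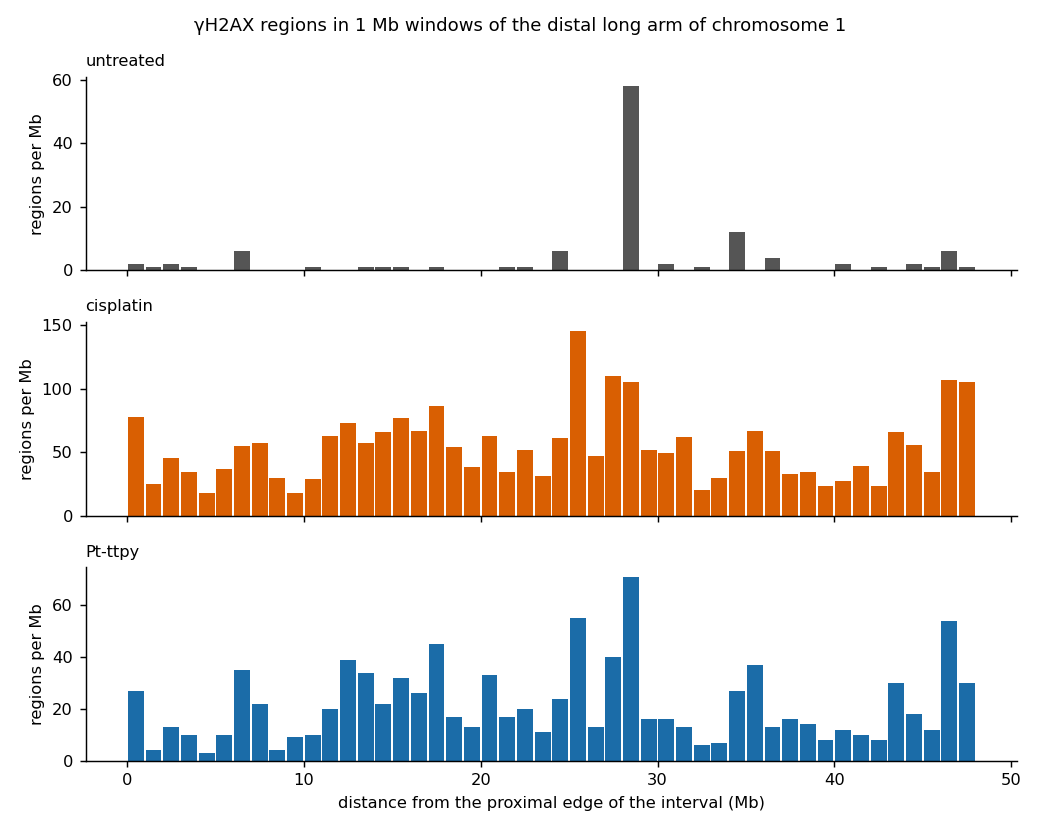
Number of γH2AX regions (y axis, regions per Mb, with a scale of its own for each list) in the 48 full windows of 1 Mb (x axis, distance from the proximal edge in Mb) for the untreated, cisplatin and Pt-ttpy lists. The untreated list has 1 tall window of 58 regions and 24 windows at 0, while every window has regions of both drugs, from 18 to 145 for cisplatin and from 3 to 71 for Pt-ttpy.

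Cisplatin regions outnumbered Pt-ttpy regions in all 48 windows, and rich and poor windows were largely the same in both lists. The densest cisplatin windows were those starting at 225 Mb with 145 regions, 227 Mb with 110 and 246 Mb with 107. The densest Pt-ttpy windows were those starting at 228 Mb with 71 regions, 225 Mb with 55 and 246 Mb with 54. The sparsest cisplatin windows started at 204 and 209 Mb with 18 regions each and at 232 Mb with 20. The sparsest Pt-ttpy windows started at 204 Mb with 3 regions and at 201 and 208 Mb with 4 each. Over the 48 windows the counts of both lists had a Pearson r of 0.88 and a Spearman rho of 0.91, given as a description, since the windows share their sequence and each list its depth. The ratio of cisplatin to Pt-ttpy regions ran from 1.48 in the window starting at 228 Mb to 7.5 in that starting at 208 Mb, with a median of 2.85. In the untreated list the densest windows started at 228 Mb with 58 regions and at 234 Mb with 12, followed by 206, 224 and 246 Mb with 6 each.

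The longest stretch without a cisplatin region ran for 363 kb, from 245435393 to 245798716, followed by 313 kb from 203934888 to 204247477 and 238 kb from 241398823 to 241637011. Without a Pt-ttpy region the longest ran for 644 kb from 208148399 to 208792586, then 609 kb from 201227599 to 201836348 and 562 kb from 231699187 to 232261400. The deposited untreated list was empty for 4542 kb from 224202697 to 228744570, for 4246 kb from 206581224 to 210827235 and for 3648 kb from 217527431 to 221175714. The longest empty stretch was therefore several times as long in the untreated list as in either treated list.

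The peak numbers of the untreated list give another count. MACS2 names its peaks in order, and along chromosome 1 the numbers rose with position. The untreated names in the stretch ran from 3865 to 4845, which spans 981 numbers, but only 109 of them were in the deposited list and 872 were missing. With the numbers between the last region before and the first region after the stretch the span was at most 1012. In both treated lists every number was present, 2589 of 2589 and 1028 of 1028. Counted by numbers, the untreated list had from 20.3 to 21.0 peaks per Mb, close to the 21.3 Pt-ttpy regions per Mb and below the 53.7 cisplatin regions per Mb. Per untreated number there were 1.05 Pt-ttpy and 2.64 cisplatin regions, in place of the 8.94 and 22.5 per deposited region. No source used here says what removed them, and neither the position within a gap nor the strength of a missing peak can be recovered.

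Stretches with many missing numbers per Mb also had many treated regions per Mb. Between neighbouring untreated regions there were 19 stretches of at least 1 Mb, 42.0 Mb in all, with no deposited untreated region inside. Their numbering skipped 744 peaks, and the same stretches held 778 Pt-ttpy and 2095 cisplatin regions. The Pt-ttpy count exceeded the missing count in 13 stretches and was below it in 6, with a ratio from 0.633 to 1.70. The cisplatin count exceeded it in all 19, with a ratio from 2.04 to 3.48. In the longest of them, from 224202697 to 228744570, 120 numbers were missing, and 131 Pt-ttpy and 377 cisplatin regions were called. In that from 206581224 to 210827235, 57 were missing beside 47 Pt-ttpy and 134 cisplatin regions, and in that from 217527431 to 221175714, 89 beside 103 and 220. Missing numbers per Mb ran from 8.82 to 30.6. Over the 19 stretches they had a Pearson r of 0.86 with Pt-ttpy and 0.88 with cisplatin regions per Mb (Spearman rho 0.88 for both), given as a description, since the points share the 3 lists.

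**Figure D2:**
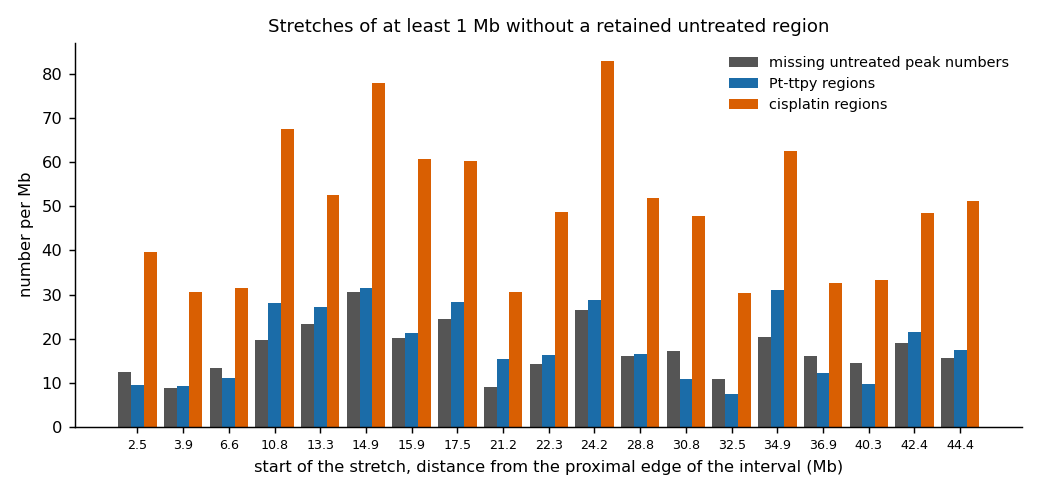
Missing untreated peak numbers, Pt-ttpy regions and cisplatin regions per Mb (y axis) in the 19 stretches of at least 1 Mb that hold no deposited untreated region, each named by its start (x axis, distance from the proximal edge in Mb). Pt-ttpy regions per missing number run from 0.633 to 1.70, and the cisplatin bar is the tallest in all 19 stretches.

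The proximal neighbour on the same arm, from 150 to 200 Mb, was denser in the treated lists and in the untreated numbering, and sparser in deposited untreated regions. Its density was 1.26 per Mb untreated, 87.2 after cisplatin and 36.3 after Pt-ttpy, with from 31.6 to 32.4 untreated numbers per Mb. On the short arm between 20 and 110 Mb the densities were 0.156 per Mb untreated, 1.49 after cisplatin and 0.878 after Pt-ttpy, with at most 1.36 untreated numbers per Mb. Chromosome 16, on its long arm between 52 and 89 Mb, held 1.54, 8.46 and 6.38 regions per Mb, and at most 5.19 numbers. The excess of the distal long arm over the short arm was thus present in the untreated numbering too. Of the numbers between the first and the last deposited one, 11.1% were kept in the distal stretch and 3.99% in the proximal neighbour. The kept share was 13.0% on the short arm and 30.5% on the long arm of chromosome 16, so most numbers were missing in all of these stretches. With 1 list per condition these differences between stretches have no test. The lists were not corrected for copy number, and its part in the counts was not tested.

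Most treated regions of the stretch were close to the limit of calling. The fold is the authors' deposited enrichment of a peak over background. The names of both treated lists also carry the mark of the untreated sample, and whether untreated chromatin served as their control is not stated, so folds are not compared between lists. The median fold was 3.12 in the cisplatin list, whose lowest fold was 2.60 and whose median on chromosomes 1 to 22 and X was 3.64. For Pt-ttpy it was 3.13, with a lowest fold of 2.62 and a median of 3.91 over the list. A -log10 q of at least 5 was reached by 308 cisplatin regions, 11.9% (10.7 to 13.2), and by 133 Pt-ttpy regions, 12.9% (10.9 to 15.1), beside 46.9% and 57.6% of the whole lists. Among untreated regions it was 71 of 115, 61.7% (52.2 to 70.6), beside 73.9%. In the proximal neighbour from 150 to 200 Mb the shares were lower, at 8.37% cisplatin, 5.83% Pt-ttpy and 31.7% untreated. Its median folds were 3.12 cisplatin and 3.13 Pt-ttpy. Without the densest block described below, the distal shares were 10.4% cisplatin, 9.29% Pt-ttpy and 56.1% untreated. The cisplatin folds were whole multiples of 1 step (all within 0.02 of a step), which gives summit pileups in whole reads. Their lowest pileup was 14 and the median 17, and 51.2% of the regions lay within 3 reads of that lowest pileup. Untreated folds were such multiples too, with a lowest pileup of 9, a median of 17 and 21.7% within 3 reads of the lowest. With a constant background, the steps place that background at 2.33 reads for untreated and 4.78 for cisplatin. Pt-ttpy pileups are not given here.

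Regions were short whatever the treatment. Untreated regions had a median width of 160 bp (quartiles 100 and 325.5), those after cisplatin 147 bp (117 and 192) and those after Pt-ttpy 146 bp (118 and 188). The untreated regions covered 26.8 kb or 0.0555% of the stretch, the cisplatin regions 452 kb or 0.937% and the Pt-ttpy regions 188 kb or 0.389%. Treated regions were all wider than 100 bp, while 30 untreated regions were not, down to 8 bp. In the untreated list 12 pieces shared a peak number with another piece, and 29 of 115 summits lay outside their own region. No treated summit did. The median distance between the midpoints of neighbouring regions was 7.03 kb for cisplatin and 16.1 kb for Pt-ttpy. For the untreated list it was 0.851 kb, and 209 kb without the densest block described below.

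Most regions of either drug did not overlap a region of the other in this stretch, although windows rich in one list were mostly rich in the other. Of the cisplatin regions 250 of 2589, 9.66% (8.55 to 10.9), overlapped a Pt-ttpy region by at least 1 bp, beside 47.8% of the whole list. In the other direction it was 255 of 1028, 24.8% (22.2 to 27.6), beside 69.9%. When a region of the other list within 1 kb was enough, the shares were 21.6% and 50.1%. Among regions off the untreated list the shares were 6.75% (5.80 to 7.80) for cisplatin and 18.0% (15.6 to 20.7) for Pt-ttpy, beside 29.2% and 51.5%. When overlapping regions of the 3 lists were joined to 1 place each, there were 3365 places. Of these 2336 were in the cisplatin list only, 772 in the Pt-ttpy list only, 162 in both treated lists only and 80 in all 3. The shares were 69.4%, 22.9%, 4.81% and 2.38%. In the same order, the proximal neighbour from 150 to 200 Mb had 68.6%, 25.4%, 4.97% and 0.477%. Chromosomes 1 to 22 and X had 13206 of 30004 places in the cisplatin list only. The other shares there were 17.4%, 16.1% and 20.9%.

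Overlap rose with strength. Of the cisplatin regions with a -log10 q below 2, 4.66% (2.74 to 7.35) lay on a Pt-ttpy region, of those from 3 to 5 it was 6.69% (5.19 to 8.47), of those from 5 to 10 it was 24.4% (19.3 to 30.2), and of those at 10 and above 51 of 54 did. For Pt-ttpy the share with a cisplatin partner was 13.0% (9.02 to 18.0) below 2, 66.3% (55.7 to 75.8) from 5 to 10 and 41 of 41 at 10 and above. Only 27 of those 54 cisplatin and 19 of those 41 Pt-ttpy regions lay outside the densest block described below. Strengths were not matched between places beyond a split at 5. Below a -log10 q of 5, 6.01% (5.07 to 7.06) of cisplatin regions here lay on a Pt-ttpy region, against 21.7% (21.0 to 22.5) on the rest of chromosomes 1 to 22 and X, 16.7% (9.84 to 25.7) on the short arm from 20 to 110 Mb and 50.0% (43.1 to 56.9) on the long arm of chromosome 16. In the same band the proximal neighbour from 150 to 200 Mb had 6.36% (5.62 to 7.16), an interval that overlaps that of the distal stretch. At 5 and above the cisplatin share was 36.7% (31.3 to 42.3) here and 19.5% (15.5 to 23.9) in that neighbour. It was 81.4% on the rest of chromosomes 1 to 22 and X, 68.4% on the short arm and 71.1% on the long arm of chromosome 16. Of the 308 distal cisplatin regions at 5 and above, 46 lay in the densest block. In that block 53 of 59 cisplatin regions of any strength lay on a Pt-ttpy region. The share at 5 and above without the block was not computed, so the difference from the neighbour is not read as one of the whole stretch.

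**Figure D3:**
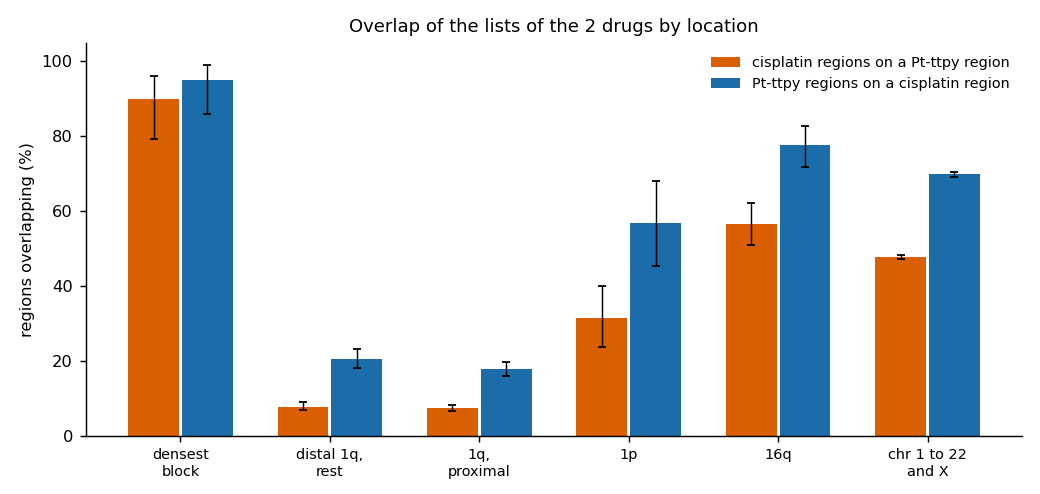
Share of cisplatin regions on a Pt-ttpy region, and of Pt-ttpy regions on a cisplatin region (y axis, percent), in the densest block, the rest of the distal long arm, the proximal long arm from 150 to 200 Mb, the short arm from 20 to 110 Mb, chromosome 16 on its long arm between 52 and 89 Mb, and chromosomes 1 to 22 and X. Bars are shares and error bars exact 95% binomial intervals. Outside the densest block the distal long arm stands at 7.79% and 20.5%, near the proximal long arm and below the other places.

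**Figure D4:**
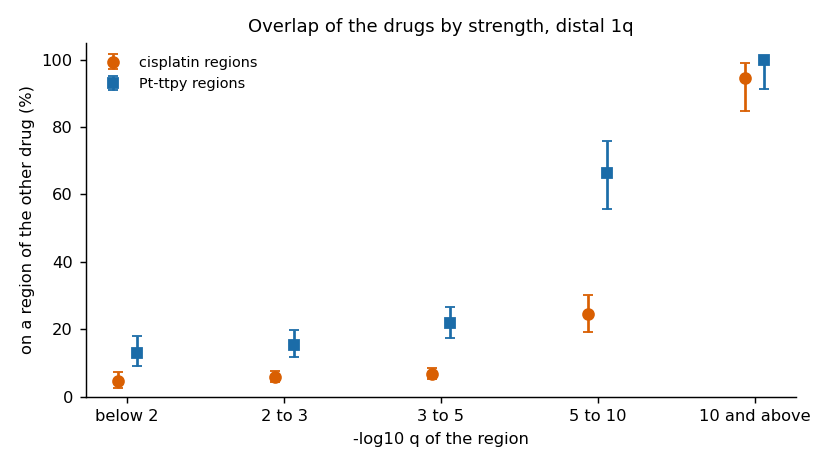
Share of distal long arm regions of each drug that lie on a region of the other drug (y axis, percent) by the -log10 q of the region (x axis, 5 classes), with exact 95% binomial intervals. Both series are low up to a -log10 q of 5 and reach 94.4% for cisplatin and 100% for Pt-ttpy in the highest class. Of that class, 27 of 54 cisplatin and 19 of 41 Pt-ttpy regions lie outside the densest block.

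The untreated regions kept in the list were mostly found again after treatment. Of the 115, 101 lay on a cisplatin region, 87.8% (80.4 to 93.2), and 100 on a Pt-ttpy region, 87.0% (79.4 to 92.5), beside 96.1% and 95.1% of the whole list. Those of the 115 without a partner were small: the 18 untreated regions that missed at least 1 treated list had widths up to 160 bp and folds up to 6.01. In the other direction 84 cisplatin regions, 3.24% (2.60 to 4.00), and 86 Pt-ttpy regions, 8.37% (6.75 to 10.2), lay on an untreated region, beside 27.3% and 39.5%. The cisplatin regions on an untreated region had a median fold of 5.19 and a median width of 296.5 bp. The 2336 on neither other list had 3.12 and 144 bp. For Pt-ttpy the same 2 classes had median folds of 4.69 and 3.13.

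A large part of the stretch's untreated regions sat in a single block. Regions of any list no more than 5 kb apart were chained, and 4 chains held 25 or more regions, a limit set after the data were seen. The next chain below the limit had 23 regions. The largest chain ran from 228744175 to 228792301, 48.1 kb, with 58 untreated, 59 cisplatin and 59 Pt-ttpy regions. It held 50.4% of the untreated regions of the stretch, but 2.28% of those after cisplatin and 5.74% of those after Pt-ttpy. Of the untreated numbers, missing ones included, it held 60 of 981, or 6.12%. The 3 lists covered 36.8%, 54.9% and 51.0% of its length. Without it the density was 1.18 per Mb untreated, 52.4 after cisplatin and 20.1 after Pt-ttpy, and the ratios to deposited untreated regions were 44.4 and 17.0, which rest on the list with the missing numbers.

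Most regions of the block were called with and without treatment. Of its untreated regions 55 of 58 lay on a cisplatin and 56 of 58 on a Pt-ttpy region. Of its cisplatin regions 53 of 59 lay on a Pt-ttpy region, and of its Pt-ttpy regions 56 of 59 on a cisplatin region. On an untreated region lay 44 of its 59 cisplatin and 47 of its 59 Pt-ttpy regions, which leaves 15 and 12 off it. The untreated numbering was nearly whole there, with 54 of 60 numbers kept, where outside the block 55 of 921 were. Regions were wide, with medians of 296.5 bp untreated and 302 bp in both treated lists. The strongest region of the block ran from 228757998 to 228758501 in the untreated list with a fold of 20.7, from 228757978 to 228758487 in the cisplatin list with 15.4 and from 228757996 to 228758492 in the Pt-ttpy list with 13.1. It ranked next to the strongest region of the stretch in each list. Further strong regions were at 228769178 to 228769443 (untreated fold 17.1, cisplatin 13.3 at 228769178 to 228769444) and at 228771261 to 228771662 (untreated fold 17.7, Pt-ttpy 10.6 at 228771261 to 228771666). The Pt-ttpy list also had a strong region at 228756718 to 228757170, with a fold of 11.7. The widest untreated region of the stretch, 926 bp from 228766939 to 228767864, was in this block too. So was that at 228745303 to 228746063, 761 bp wide, where the cisplatin list had 1 region of 1830 bp from 228744575 to 228746404 and the Pt-ttpy list 1 of 1609 bp from 228744567 to 228746175.

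In the block, the distances between summits near 2200 and 4400 bp were among the most frequent, though not to the same degree in each list. The bins given were picked after the counts were seen. Summits that lay outside their own region were left out. Among pairs of untreated summits up to 5000 bp apart, counted in 50 bins of 100 bp, the fullest bin was 2200 to 2300 bp with 13 pairs and the next 4400 to 4500 bp with 12, where the median bin had 5. Among cisplatin summits the fullest bin was 4400 to 4500 bp with 18 pairs, and 2200 to 2300 bp had 10, with a median of 7. Among Pt-ttpy summits both bins had 14 pairs, tied with 2 others as the fullest, with a median of 8. Among regions with a -log10 q of at least 10, the bin from 2200 to 2300 bp held 8 untreated pairs (the fullest bin), 7 cisplatin pairs (next to the fullest) and 4 Pt-ttpy pairs (tied as the fullest), each beside a median of 1. In the rest of the stretch the bin from 2200 to 2300 bp held 36 cisplatin pairs (median bin 31) and 7 Pt-ttpy pairs (median 7). The files name no genes. RefSeq lists 17 genes named RNA5S1 to RNA5S17 on chromosome 1 in GRCh38.p14, one after another with RHOU and DUSP5P1 as the only other genes between them. That assembly is not the build of these lists, so the block was not matched to the 5S array by position, and how far reads of repeated sequence add to it was not tested.

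**Figure D5:**
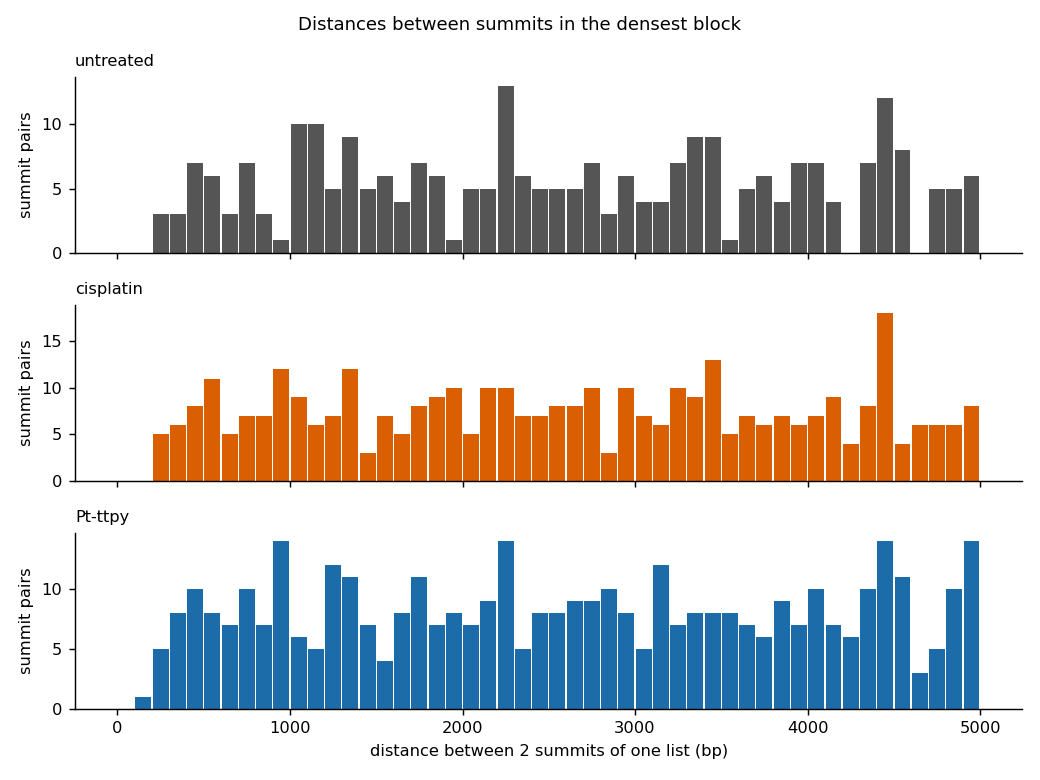
Number of pairs of summits (y axis) by the distance between them (x axis, bp, bins of 100 bp up to 5000 bp) within the densest block, for the untreated, cisplatin and Pt-ttpy lists. The bins from 2200 to 2300 bp and from 4400 to 4500 bp are the 2 fullest in the untreated list with 13 and 12 pairs, the latter is the fullest in the cisplatin list with 18, and both are among 4 tied fullest bins in the Pt-ttpy list with 14.

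The other 3 chains differed in how much of them the untreated list held. That from 234912232 to 234937655 had 12 untreated, 16 cisplatin and 17 Pt-ttpy regions in 25.4 kb. It held the widest cisplatin region of the stretch, 3293 bp from 234915878 to 234919170, the widest Pt-ttpy region, 2167 bp from 234915890 to 234918056, and the next widest of cisplatin, 2303 bp from 234912232 to 234914534. Their folds were moderate, at 5.19, 4.81 and 4.67. A cisplatin partner was found for 16 of its 17 Pt-ttpy regions. The third widest Pt-ttpy region of the stretch, 1607 bp from 234912246 to 234913852, was also there.

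The chain from 206558612 to 206582642 had 5 untreated, 20 cisplatin and 18 Pt-ttpy regions in 24.0 kb. Its untreated regions were weak, with a highest fold of 5.71, and the numbering skipped 7 of 12 peaks. The drugs had much of it in common, with 14 of 20 cisplatin regions on Pt-ttpy regions and 13 of 18 the other way. The chain from 246488783 to 246543749, 55.0 kb long, was nearly free of deposited untreated regions, with 2 beside 39 cisplatin and 29 Pt-ttpy regions. Its highest folds were 4.33 for cisplatin and 4.17 for Pt-ttpy, so it was dense but weak. Of its cisplatin regions 16 of 39 lay on a Pt-ttpy region, and of its Pt-ttpy regions 16 of 29 on a cisplatin region. Both shares lie above the 9.66% and 24.8% of the whole stretch, though the chains were picked for their density of regions.

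The strongest region of the stretch was the same in all 3 lists. It ran from 224202466 to 224202696 with a fold of 30.4 in the untreated list, from 224202438 to 224202698 with 22.2 in the cisplatin list and from 224202312 to 224202698 with 17.6 in the Pt-ttpy list. Folds below these made up 96.9%, 99.0% and 98.3% of their lists. It is the last of a row of regions that starts at 224199420 and was called in every list. Its neighbour, 1370 bp from 224200855 to 224202224 after cisplatin, had a fold of 11.8, and the matching untreated piece of 622 bp from 224201148 to 224201769 one of 11.1. The row is part of the chain of 23 regions just under the limit.

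Outside the densest block 38 places were called in all 3 lists, and several were single sharp regions with almost the same borders. One ran from 210827236 to 210827492 untreated (fold 13.2), from 210827230 to 210827526 after cisplatin (13.5) and from 210827227 to 210827524 after Pt-ttpy (12.7). It was the third strongest of the stretch in both treated lists. One at 240348235 to 240348425 untreated (fold 17.4) was at 240348235 to 240348461 after cisplatin (9.52) and at 240348232 to 240348402 after Pt-ttpy (8.05). One at 240138268 to 240138403 had folds of 17.1 untreated, 10.0 cisplatin and 10.1 Pt-ttpy. One at 236260457 to 236260693 had folds of 10.2, 9.35 and 8.95. Each of these 4 lay above most of the folds of its own list in all 3 lists. By the share of its own list's folds that a place exceeded, 27 of the 38 stood lower in the untreated list than in both treated lists and 4 stood higher. That share depends on what else each list holds. Over chromosomes 1 to 22 and X the median -log10 q was 7.60 untreated, 4.38 cisplatin and 5.65 Pt-ttpy. The median folds of the 38 places were 5.56, 4.93 and 4.81 in the same order. The same count over all places shared by the 3 lists was not made, so no gain after a drug is read from it. The widest gap between these shares was at one of the 27. At 203889632 to 203889837 the untreated fold of 3.91 exceeded 5.72% of its list, while the cisplatin fold of 5.54 exceeded 82.2% and the Pt-ttpy fold of 6.88 exceeded 86.6% of theirs.

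Places called only after treatment did not reach the folds of the strongest shared ones. The strongest cisplatin regions that lay on a Pt-ttpy and on no deposited untreated region were taken after their values were seen. The first, from 212837042 to 212837209, had a fold of 7.62, and its Pt-ttpy partner from 212837081 to 212837187 one of 4.30. The next outside the densest block was at 202173646 to 202173770 with a fold of 6.58, beside 5.20 at 202173660 to 202173846 in the Pt-ttpy list. Another was at 246187673 to 246187836 with 5.71, beside 4.56 at 246187736 to 246187841. The strongest region of the cisplatin list alone ran from 248188674 to 248188804 with a fold of 6.58, and the strongest of the Pt-ttpy list alone from 223625377 to 223625517 with a fold of 4.94. Since 872 untreated numbers are missing, none of these can be called absent from untreated cells.

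At the edges of the stretch the rule cut through a continuous field of treated regions. The last cisplatin region before it ended at 199997297 with a fold of 2.94, and the first inside started at 200020557 with 3.12. The last Pt-ttpy region before it ended at 199991459 with a fold of 3.65, and the first inside started at 200043960 with 3.52. At the distal end the last cisplatin region inside ended at 248203103 with a fold of 2.77, and the first beyond started at 248276045 with 3.29. The short window from 248 to 248.25 Mb held 5 cisplatin, 2 Pt-ttpy and 0 untreated regions.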

How the data were processed

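Data were γH2AX ChIP-seq peak lists of A2780 cells, 1 each for untreated, cisplatin and Pt-ttpy cells. Sonicated fragments of 200 to 700 bp were read from one end for 50 bases, per the labels' protocols. BWA 0.7.5, MACS2 2.1.0 and hg19 come from the submitters' processing notes. The sources used here do not give the calling settings, the control or how replicates entered. Every peak of the deposited lists has a fold over background (a ratio), -log10 p- and q-values, a whole-number score and a summit. Read totals are not in the lists, so depth is unknown beyond the background pileups recovered from the untreated and cisplatin folds.

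Regions were assigned by midpoint and positions written 1-based. Overlap required 1 bp. Missing peak numbers were counted between retained neighbours. Backgrounds are 1 Mb windows and whole lists on chromosomes 1 to 22 and X. With 1 list per condition no test was run. The stretch, comparison stretches and rules for named regions were chosen with earlier results of these data known. Per list, the regions named were the 5 of highest -log10 q, the 3 widest, the 3 longest empty stretches, the 3 densest and sparsest windows, and places in all 3 lists. A 5 kb chain with 25 regions made a dense block. Alternatives were stricter -log10 q (5 and 10), merging within 1 kb, summits, equal list lengths, other overlap limits, and leaving out dense blocks. Tied windows were all named. Drug-only regions and dense blocks were picked after their values were seen. The code recovered the planted values in 10 of 10 checks on simulated lists of 1000 regions. No annotation or genome of build hg19 was used here, so no sequence is shown and regions are not placed in genes. Calculations used pandas 2.3.3 and numpy 2.4.6 in Python 3.11.15, intervals came from scipy 1.17.1, and plots from matplotlib 3.10.9.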

Additional observations from a re-analysis of the deposited data

How the results depend on the processing

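Of 81 recomputed values, 24 stayed within 1.5 times (counts and ratios) or within the 95% interval (shares and medians) of the reported one, 56 moved and 1 changed direction; why they moved was not tested beyond what each setting removes. No paired analysis was possible because each list stands for both samples of a group, and for the same reason no replicate could be left out. Leaving out dense blocks was added after the data were seen.

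With a -log10 q of at least 5, the untreated, cisplatin and Pt-ttpy lists had 1.47, 6.38 and 2.76 regions per Mb, and with at least 10 they had 0.788, 1.12 and 0.850. Cisplatin regions per untreated region then numbered 4.34 and 1.42, Pt-ttpy per untreated 1.87 and 1.08, and cisplatin per Pt-ttpy 1.32 at the stricter limit. With the 9709 top regions of each list by -log10 q, which ranks them as -log10 p does, the stretch held 115 untreated, 148 cisplatin and 107 Pt-ttpy regions. The untreated list has 9709 regions on chromosomes 1 to 22 and X, so it was not cut. Pt-ttpy per untreated then reversed to 0.930, cisplatin per untreated was 1.29 and cisplatin per Pt-ttpy 1.38. With missing numbers counted, the untreated list had 20.3 peaks per Mb and the ratios to it were 2.64 for cisplatin and 1.05 for Pt-ttpy. Merging within 1 kb left 0.953 untreated regions per Mb and raised these ratios to 46.6 and 18.7. Without the densest block untreated regions per Mb were 1.18 and the ratios 44.4 and 17.0, and without all 4 dense blocks 0.788, 64.6 and 23.8.

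Overlap moved as follows. With 50% of the width required, 6.68% of cisplatin regions lay on Pt-ttpy regions and 19.4% the other way. Within 1 kb it was 21.6% and 50.1%, and 95.7% of untreated regions were near a cisplatin region. Of regions with a -log10 q of at least 5, set against the full other list, it was 36.7% and 76.7%, and 94.4% of such untreated regions lay on a cisplatin region and as many on a Pt-ttpy region. Without the densest block it was 7.79% and 20.5%, with 77.2% of untreated on Pt-ttpy regions. Without the 4 blocks it was 6.31% and 17.0%, with 78.9% of untreated regions on cisplatin and 71.1% on Pt-ttpy regions.

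The median distance between regions, after merging within 1 kb, was 469 kb untreated, 10.5 kb cisplatin and 23.7 kb Pt-ttpy. At a -log10 q of at least 5 it was 1.29 kb untreated and 44.7 kb cisplatin. Without the densest block the untreated distance was 209 kb, and without the 4 blocks the distances were 617, 7.94 and 21.3 kb. Median widths at a -log10 q of at least 5 were 274, 162 and 229 bp. Without the densest block, and without all 4, the untreated width was 114 bp, and without all 4 the Pt-ttpy width was 142 bp.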
